A study of Mus musculus with 12 samples.

Results

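Smooth muscle cells (SMCs) of the descending thoracic aorta were compared with SMCs of the ascending aorta and arch in GFPiSMC mice, whose TGF-β receptor genes are intact. The libraries were chosen by label: the 3 ascending and the 3 descending GFPiSMC libraries, paired by the animal number in the label, make 6 of the 12 libraries in the series, and every gene that could be tested was kept. The series was made to learn what short-term loss of TGF-β signaling does to aortic SMCs, and the remaining 6 libraries come from Tgfbr1/2iSMCKO mice. Each library is bulk RNA-seq of GFP-positive cells sorted from 1 aortic segment of 1 male mouse. GFPiSMC mice are on a C57BL/6J background and carry Myh11-CreERT2, a tamoxifen-activated Cre recombinase driven by the promoter of the smooth muscle myosin gene Myh11, together with the mT/mG reporter, which switches a cell and its progeny to green fluorescence once Cre has acted. The Tgfbr1/2iSMCKO mice carry the same alleles and, in addition, floxed Tgfbr1 and Tgfbr2. Tamoxifen was given for 5 days, at 2 mg/d from 11 weeks of age for mature aortas taken at 12 weeks, as these were. The treatment text of the labels also names 1 mg/d from 4 weeks. The model is limited in that the Cre transgene sits on the Y chromosome, so that only males were studied, in that only cells with Myh11 promoter activity at the time of tamoxifen are marked, and in that the ascending piece also holds the arch.

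SMCs of the aortic wall share a contractile phenotype but not an embryonic origin. Those of the ascending aorta and arch descend from the neural crest and the second heart field, whereas those of the descending aorta descend from paraxial mesoderm. Hox genes encode homeodomain transcription factors that lie in 4 clusters, Hoxa to Hoxd, and genes further towards the 5′ end of a cluster (higher paralogue numbers) are expressed further towards the tail of the embryo. Hand2, Gata4, Tbx20 and Msx2 encode transcription factors used in the outflow tract of the heart and in the pharyngeal arches.

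Descending SMCs differed from ascending SMCs in a small set of genes, among them positional transcription factors, matrix proteins and secreted Wnt inhibitors. The Hox genes Hoxa7 and Hoxb7, the matrix glycoprotein gene Tnc and the microtubule minus-end gene Camsap2 were higher in the descending segment, by 15.9-, 11.9-, 3.17- and 8.19-fold (here and in the next sentence the fold change fitted by edgeR, which is not the ratio of the mean CPM). The transcription factor gene Hand2 was 19.4-fold higher in the ascending segment, the matrix genes Lum and Fbln1 were 14.9- and 36.9-fold higher there, and the Wnt inhibitor genes Sfrp2 and Wif1 5.95- and 2.84-fold. A gene was called when edgeR's quasi-likelihood test, blocked by animal and with Benjamini-Hochberg adjustment over all genes tested, gave an adjusted p under 0.05 with a change of more than 2-fold. Of 19392 genes tested, 26 were called (0.134%), 4 of them higher in the descending segment (0.0206%) and 22 lower (0.113%). The median log2 fold change of all genes was -0.01 (here and below, descending minus ascending). An unadjusted p under 0.05 was reached by 1152 genes (5.94%), 538 with the higher value in the descending segment (2.77%) and 614 with the lower (3.17%). These shares stand beside every list count below. At 0.134% called, most single pathway lists would hold no call, so its absence says little about a list. The number of calls depended on the fit and on single animals. Without the block for the animal 73 genes were called, 25 of the 26 among them. With both libraries of animal 1 left out there was no call (719 genes at unadjusted p under 0.05), without animal 2 there was 1 call (Lrrc8a, with 1063 genes at unadjusted p under 0.05), and without animal 3 there were 130, all 26 among them.

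**Figure D1:**
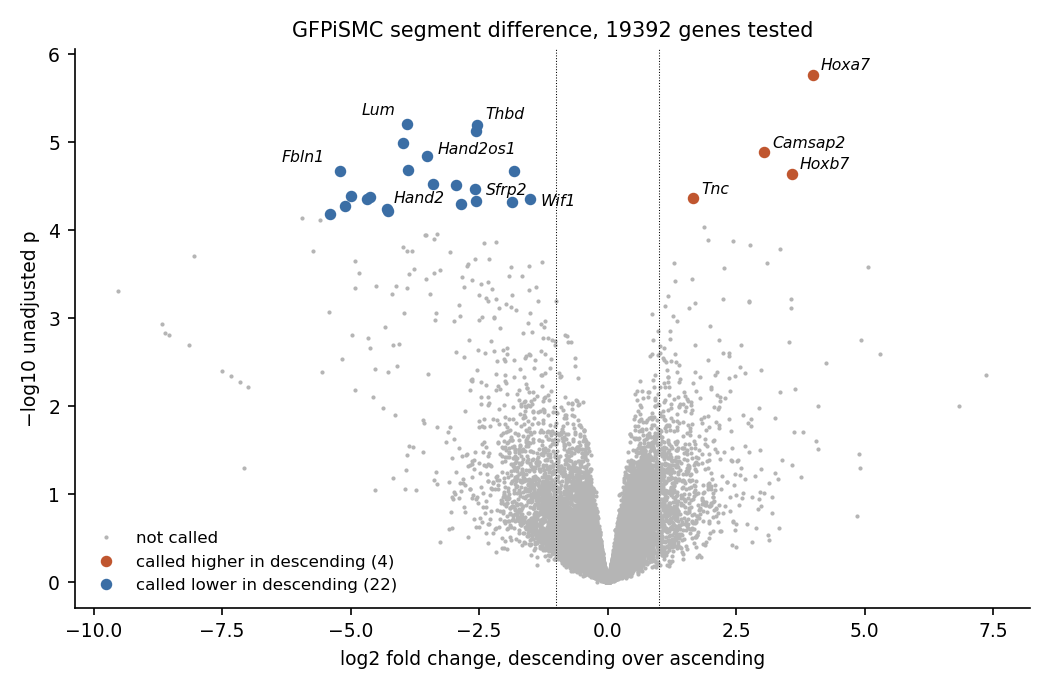
Each point is 1 of the 19392 genes tested in GFPiSMC SMCs, placed by its log2 fold change (descending over ascending, horizontal axis) and by −log10 of its unadjusted p (vertical axis); dotted lines mark a 2-fold change. The 4 genes called higher in the descending segment and the 22 called lower lie at the top, with Hoxa7 uppermost.

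**Figure D2:**
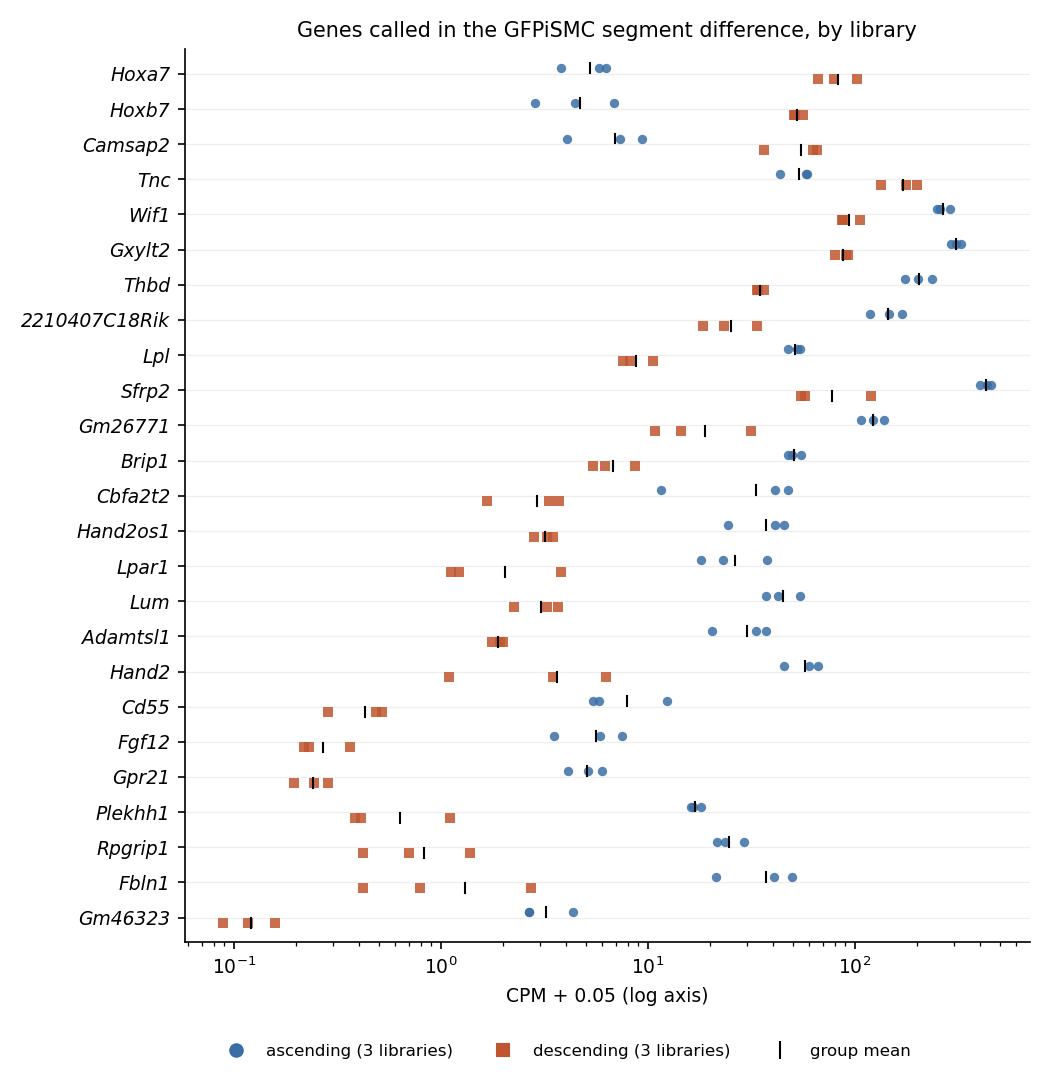
CPM (counts scaled by library size) in each of the 6 GFPiSMC libraries (log axis, with 0.05 added) for 25 of the 26 called genes, ordered by fold change; circles are ascending libraries, squares descending libraries and bars group means. In all 25 genes shown the 3 libraries of one segment lie apart from the 3 of the other.

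The 6 libraries held 25007747 to 31392396 counts from 9208 to 20000 sorted cells each, with counts on 30890 to 35334 genes and 2.99% to 4.77% of counts on the mitochondrial genome. The ranges of the segments overlapped in each of these measures. The sorted cells carried the transcripts of smooth muscle. The summed CPM of 8 smooth muscle markers lay between 38832 and 43218 in ascending and between 42129 and 46939 in descending libraries. Acta2, encoding smooth muscle α-actin, was measured at 26563, 30760 and 30752 CPM in ascending and 28926, 29230 and 30501 CPM in descending libraries, with overlapping ranges. In bulk samples of this kind, fewer cells of a type and less RNA per cell cannot be told apart.

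Hoxa7 gave the smallest p of all genes. It was measured at 5.73, 6.21 and 3.74 CPM in the ascending libraries of animals 1, 2 and 3 and at 79.3, 102 and 66.1 CPM in their descending libraries (log2 fold change 3.99 ± 0.23 SE, adjusted p = 0.0329). All 3 descending libraries stood far above all 3 ascending ones. Hoxb7, its paralogue in the Hoxb cluster, was measured at 6.8, 4.37 and 2.79 CPM in ascending and 55.8, 51.1 and 50.6 CPM in descending libraries (3.58 ± 0.32, adjusted p = 0.0399), again without overlap and with little spread among the descending libraries. The stretch of 250 bases before the RefSeq start of Hoxa7 (GRCm38.p6, chr6:52218574-52218823, minus strand) is shown because this gene leads the comparison. It lies inside the longer span that GENCODE gives the gene (chr6:52214491-52221854). Capitals mark TTTATG, a sequence bound by caudal and posterior Hox proteins, which occurs at 2 places in it.
Hoxa7: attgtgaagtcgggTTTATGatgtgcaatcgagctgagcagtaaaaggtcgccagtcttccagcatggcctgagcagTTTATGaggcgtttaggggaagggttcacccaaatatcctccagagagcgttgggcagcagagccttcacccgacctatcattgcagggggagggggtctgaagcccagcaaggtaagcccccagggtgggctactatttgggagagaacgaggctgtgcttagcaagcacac

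Of the 39 genes of the 4 Hox clusters, 26 had enough counts to be tested, 2 were called, both higher in the descending segment, and 11 had an unadjusted p under 0.05, all with the higher value in the descending segment. Their median log2 fold change was 1.15, beside -0.01 over all genes tested. In 10 of the 26 all 3 descending libraries lay above all 3 ascending ones, which 5.68% of all genes did. The values differed with position in the cluster. For the genes of groups 1 to 4, at the 3′ end, the median over 10 genes tested was -0.27 and only Hoxc4 had an unadjusted p under 0.05. For groups 5 to 10 the median over 15 genes was 2.01, every log2 fold change was positive and 10 genes had an unadjusted p under 0.05. This division of the clusters was chosen after the values were seen, and it is given as a description. Of groups 11 to 13 only Hoxa13 was tested, with a log2 fold change of 0.03 ± 0.54.

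Along the Hoxa cluster, Hoxa3 was measured at 34.7, 37.5 and 28.4 CPM in ascending and 31.6, 22.7 and 25.3 CPM in descending libraries, with overlapping ranges (log2 fold change -0.34 ± 0.24). Hoxa5, with 4.34, 7.71 and 5.97 CPM in ascending and 9.1, 6.48 and 9.09 CPM in descending libraries, also overlapped (0.47 ± 0.37). Hoxa9, on the 5′ side of Hoxa7, was measured at 1.56, 2.3 and 1.59 CPM in ascending and 6.46, 3.93 and 9.59 CPM in descending libraries (1.80 ± 0.47, adjusted p = 0.525). Its ranges did not overlap, but it did not pass the adjusted threshold. Hoxa10 was at 0.382, 0 and 0.239 CPM in ascending and 8.56, 2.25 and 6.79 CPM in descending libraries, likewise apart, with an adjusted p of 0.0909. Along the Hoxb cluster, Hoxb5 was measured at 13.6, 15.3 and 10.3 CPM against 32.3, 34.4 and 24.5 CPM (1.22 ± 0.23, adjusted p = 0.239), and Hoxb6 at 12.5, 6.31 and 3.86 CPM against 27.9, 32.7 and 21.5 CPM (2.00 ± 0.36, adjusted p = 0.194). In both genes every descending library was above every ascending one. Hoxb2, Hoxb3 and Hoxb4, at the 3′ end, had log2 fold changes of -0.17 ± 0.40, -0.53 ± 0.32 and 0.17 ± 0.40. The Hoxc genes were sparse. Hoxc6 was at 0.139, 0.133 and 0.0796 CPM in ascending and 1.08, 1.17 and 2.26 CPM in descending libraries (adjusted p = 0.242), and Hoxc4, with 0.416, 0.801 and 1.07 CPM against 5.92, 7.35 and 1.05 CPM, overlapped because the descending library of animal 3 lay among the ascending ones. The 3 Hoxd genes tested had no unadjusted p under 0.05. None of the 9 genes for Hox cofactors, the partner proteins of the Pbx and Meis families and their relatives, reached an unadjusted p under 0.05 (median 0.03).

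**Figure D3:**
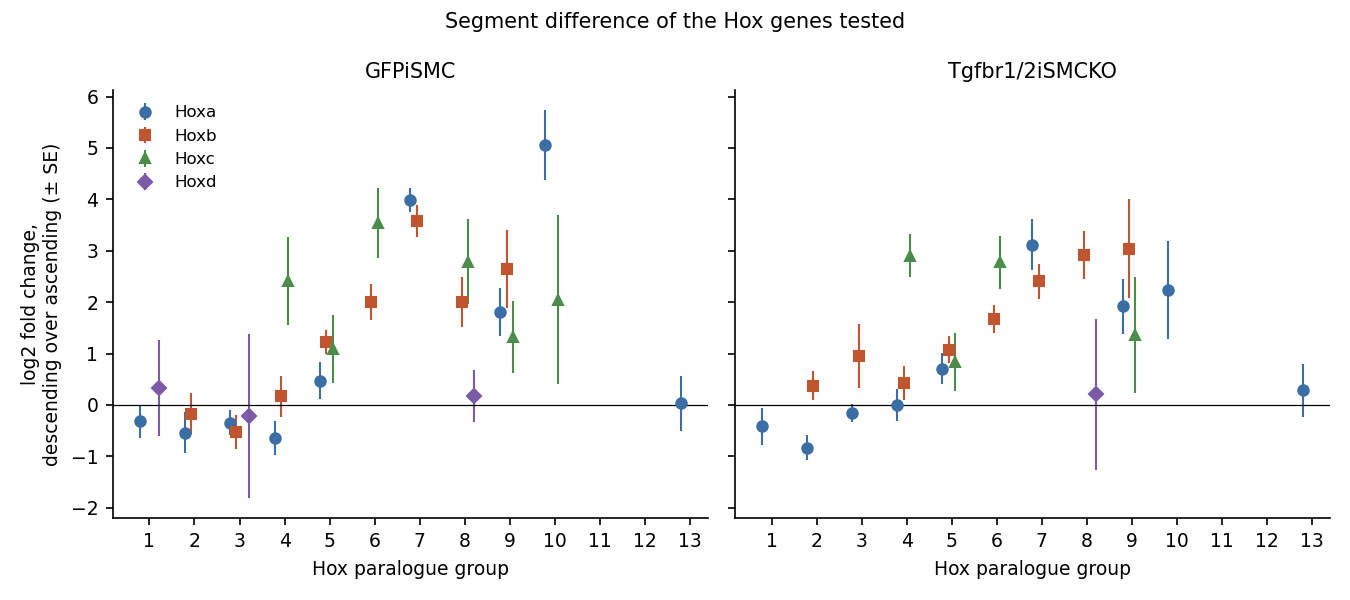
Log2 fold change of each Hox gene tested (descending over ascending, with bars of 1 SE) against its paralogue group, in GFPiSMC (left) and Tgfbr1/2iSMCKO SMCs (right); symbols and colours mark the cluster. In the GFPiSMC panel values lie between -0.54 and 0.33 in groups 1 to 3 and between 0.18 and 5.06 in groups 5 to 10. In group 4 Hoxa4 lies at -0.64 and Hoxb4 at 0.17, and Hoxc4 is positive.

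Antisense transcripts of the clusters were measured too. Hoxaas3, an antisense RNA that overlaps Hoxa7 on the opposite strand, was at 5.07, 4.84 and 4.81 CPM in ascending and 15.1, 16 and 16.9 CPM in descending libraries (log2 fold change 1.71 ± 0.27, adjusted p = 0.137), with narrow and separate ranges. Whether reads were counted by strand is not given in the sources used here, so that reads of Hoxa7 and Hoxaas3 cannot be told apart. The same holds for 14 of the 26 called genes, which overlap an annotated gene on the opposite strand, and 17 overlap an annotated gene on either strand.

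Hand2 was the only gene called among the transcription factors listed for the outflow tract. It was measured at 45.2, 59.8 and 66.4 CPM in ascending and 1.05, 3.42 and 6.24 CPM in descending libraries (log2 fold change -4.28 ± 0.45, adjusted p = 0.0471). The lowest ascending library was far above the highest descending one. Its divergent long noncoding neighbour Hand2os1, whose transcription accompanies that of Hand2, was called as well, with 24.3, 41.2 and 45.4 CPM in ascending and 2.78, 3.42 and 3.2 CPM in descending libraries (-3.51 ± 0.29, adjusted p = 0.0396). Reads of the overlapping pair cannot be told apart without strand. Further noncoding genes that do not overlap Hand2 had values in the same direction. Gm34030, 7059 bases away, was at 1.77, 2.54 and 4.62 CPM against 0.144, 0.134 and 0.39 CPM (adjusted p = 0.0927), and 5033428I22Rik, 7485 bases away, was at 4.44, 7.61 and 8.59 CPM against 0.506, 0.805 and 0.702 CPM (adjusted p = 0.0689). Neither passed the adjusted threshold, although the segments did not overlap. The 250 bases before the RefSeq start of Hand2 (GRCm38.p6, chr8:57320733-57320982, plus strand) are shown because Hand2 and Hand2os1 were both called. Their RefSeq starts are 124 bases apart, so the stretch is longer than the distance between them. Capitals mark the homeodomain core TAATTA, found at 1 place, and the GATA factor core GATAA, found at 2 places, of which one reads on the other strand (as TTATC) and shares bases with TAATTA.
Hand2: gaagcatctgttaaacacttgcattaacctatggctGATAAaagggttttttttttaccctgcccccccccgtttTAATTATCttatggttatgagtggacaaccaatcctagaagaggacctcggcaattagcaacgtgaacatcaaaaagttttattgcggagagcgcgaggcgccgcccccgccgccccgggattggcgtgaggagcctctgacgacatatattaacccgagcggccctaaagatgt

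Of 30 transcription factor genes listed for the outflow tract, pharyngeal arches and heart, 23 were tested, 1 was called (Hand2) and 9 had an unadjusted p under 0.05, all with the lower value in the descending segment. Their median log2 fold change was -0.40. In 11 of the 23, all 3 descending libraries lay below all 3 ascending ones, which 7.66% of all genes did. Msx2, a homeobox gene of neural crest derivatives, was measured at 20.2, 6.94 and 7.92 CPM in ascending and 0.181, 0.369 and 0.468 CPM in descending libraries (adjusted p = 0.0891). Sox9, required for cartilage and for crest-derived mesenchyme, was at 44, 23.4 and 26.7 CPM against 8.16, 6.14 and 6.08 CPM (adjusted p = 0.0724), and Tbx20 at 18.4, 21.3 and 26.7 CPM against 2.89, 1.58 and 6.59 CPM (adjusted p = 0.113). These 3 genes showed no overlap between segments and missed the adjusted threshold. Gata4 was at 0.416, 0.734 and 0.557 CPM in ascending libraries and at 0 in each descending library, so that the ascending level was at least 5.24-fold higher against a floor of 3 counts per library (adjusted p = 0.453). Tfap2b, a neural crest factor, was at 13.4, 3.47 and 8.28 CPM against 1.34, 0 and 0.468 CPM (adjusted p = 0.198).

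Of 24 factors listed for paraxial mesoderm and trunk, 13 were tested, none was called and 6 had an unadjusted p under 0.05, 3 with the higher value in the descending segment, Tbx18 and Pax1 among them, and 3 with the lower, Tbx15, Foxf1 and Prrx2 (median 0.01). Pax1, a gene of the sclerotome, was at 1.35, 2.07 and 1.07 CPM in ascending and 2.6, 4.46 and 3 CPM in descending libraries (adjusted p = 0.766). Tbx15 was at 10.3, 8.64 and 9.11 CPM against 1.77, 1.44 and 3.16 CPM (adjusted p = 0.17). Of 24 other regional factors tested, none was called, and 4 had an unadjusted p under 0.05. Dlx5 and Dlx6, neighbouring homeobox genes of the pharyngeal arches, were among them. Dlx5 was at 37.5, 14.3 and 16.1 CPM against 1.55, 1.11 and 3.16 CPM (adjusted p = 0.104), and Dlx6 at 11.8, 5.04 and 6.21 CPM against 0.144, 0.503 and 0.312 CPM (adjusted p = 0.113). Gsc was at 0 in each ascending library and at 0.65, 1.11 and 0.429 CPM in descending libraries, at least 6.76-fold higher there against the same floor (adjusted p = 0.386).

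**Figure D4:**
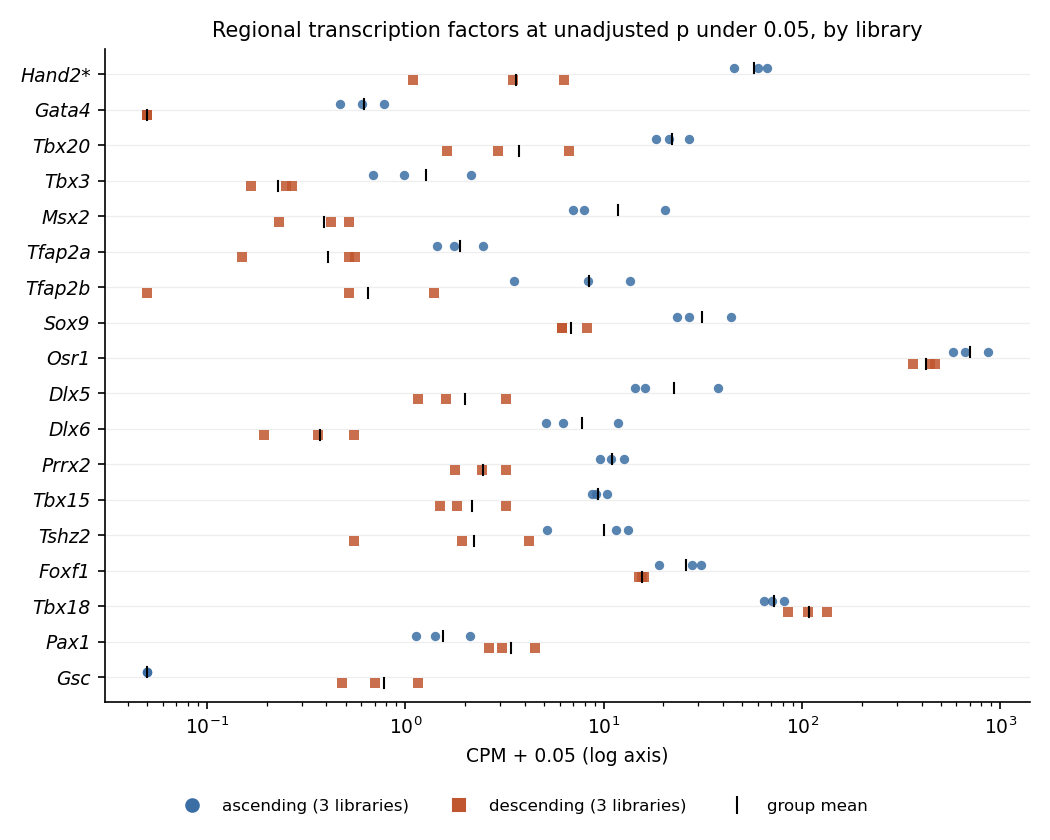
CPM in each of the 6 GFPiSMC libraries (log axis, with 0.05 added) for 18 regional transcription factor genes with an unadjusted p under 0.05; circles are ascending libraries, squares descending libraries, bars group means, and the asterisk marks Hand2, the only one called. For 15 of them the descending mean lies to the left of the ascending mean and for Tbx18, Pax1 and Gsc to the right.

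Genes of the extracellular matrix were called in both directions. Tnc, encoding tenascin-C, an adhesion-modulating glycoprotein of developing and injured vessels, was higher in the descending segment, with 58.7, 57.9 and 43.4 CPM in ascending and 177, 200 and 133 CPM in descending libraries (log2 fold change 1.66 ± 0.16, adjusted p = 0.044). Lum, encoding the keratan sulfate proteoglycan lumican, which binds collagen fibrils, was lower, with 37.2, 42.4 and 54.5 CPM against 2.2, 3.62 and 3.2 CPM (-3.90 ± 0.28, adjusted p = 0.0356). Neither gene had overlapping ranges. Fbln1, encoding the elastic fibre protein fibulin-1, was lower in the descending segment as well, with 49.5, 21.3 and 40.6 CPM against 2.67, 0.369 and 0.741 CPM (-5.21 ± 0.46, adjusted p = 0.0399). Adamtsl1, encoding a secreted relative of the ADAMTS proteinases that lacks their catalytic domain, was measured at 37.1, 20.3 and 33.1 CPM in ascending and 1.88, 1.71 and 1.95 CPM in descending libraries (-3.99 ± 0.31, adjusted p = 0.0394), where the descending values were nearly level. The 250 bases before the RefSeq start of Tnc (GRCm38.p6, chr4:64047016-64047265, minus strand) are shown because Tnc is the only matrix gene called higher in the descending segment. Capitals mark a TATA box, TATAAA.
Tnc: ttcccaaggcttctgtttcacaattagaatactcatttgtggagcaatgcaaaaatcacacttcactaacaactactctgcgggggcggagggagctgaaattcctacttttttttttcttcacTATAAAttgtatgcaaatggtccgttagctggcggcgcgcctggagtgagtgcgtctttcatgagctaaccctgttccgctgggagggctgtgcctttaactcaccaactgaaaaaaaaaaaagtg

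Of 22 elastic fibre genes tested, 1 was called (Fbln1) and 8 had an unadjusted p under 0.05, each with the lower value in the descending segment (median -0.08). Genes of the fibre's core had log2 fold changes close to 0. Eln, encoding elastin, was at 1311, 1228 and 1259 CPM in ascending and 1178, 1396 and 1100 CPM in descending libraries (-0.05 ± 0.14), and Fbn1, encoding fibrillin-1, had a log2 fold change of -0.08 ± 0.17. In both the segments overlapped. Microfibril-associated genes had lower values in all 3 descending libraries without passing the adjusted threshold. Mfap2 was at 68.5, 56.3 and 70.7 CPM against 16.6, 19 and 27.5 CPM (adjusted p = 0.1), Mfap5 at 1150, 998 and 1182 CPM against 729, 483 and 759 CPM (adjusted p = 0.231), and Mfap4 at 1001, 1029 and 959 CPM against 708, 655 and 575 CPM (adjusted p = 0.301). The log2 fold change of Lox, the elastin and collagen crosslinking enzyme, was -0.46 ± 0.15 (adjusted p = 0.719) and that of Fbln5 -0.49 ± 0.18 (adjusted p = 0.792).

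None of 39 collagen genes was called, beside 0.134% of all genes. An unadjusted p under 0.05 was reached by 7, 5 of them with the lower value in the descending segment (median -0.24). Col15a1, encoding a basement membrane collagen, was at 296, 317 and 247 CPM in ascending and 187, 168 and 149 CPM in descending libraries (-0.77 ± 0.15, adjusted p = 0.242), with separate ranges. Col1a1 and Col3a1, the fibrillar collagens of the wall, had log2 fold changes of 0.03 ± 0.18 and -0.15 ± 0.13. Among 45 proteoglycan and glycoprotein genes Tnc and Lum were called, and 13 had an unadjusted p under 0.05, 6 with the higher and 7 with the lower value in the descending segment (median 0.07). Dcn, encoding decorin and lying 46985 bases from Lum, was at 32.7, 58.4 and 65.8 CPM against 12.7, 10.6 and 22.7 CPM (adjusted p = 0.15), and Aspn, encoding asporin, at 127, 191 and 226 CPM against 60, 56.5 and 67.6 CPM (adjusted p = 0.0907). Of 28 laminin and integrin genes none was called, 3 having an unadjusted p under 0.05 with the higher and 5 with the lower descending value (median 0.19). Of 36 proteinase and inhibitor genes Adamtsl1 alone was called, with 3 at an unadjusted p under 0.05 in each direction (median 0.06).

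Of the secreted Wnt inhibitor genes, Sfrp2 and Wif1 were lower in the descending segment. Sfrp2, encoding a frizzled-related protein that binds Wnt ligands, was measured at 433, 400 and 456 CPM in ascending and 57.5, 54.7 and 119 CPM in descending libraries (-2.57 ± 0.24, adjusted p = 0.044). The descending library of animal 3 had the highest of the descending values and still lay far below the ascending range. Wif1, encoding Wnt inhibitory factor, was at 288, 249 and 259 CPM against 106, 87.9 and 86.7 CPM (-1.51 ± 0.15, adjusted p = 0.044), with little spread in either segment. Frzb, a further frizzled-related gene, was at 127, 71.2 and 66.3 CPM against 28.9, 32.4 and 30.3 CPM (-1.46 ± 0.27, adjusted p = 0.217). Of 36 Wnt pathway genes tested, Sfrp2 and Wif1 were called and 4 had an unadjusted p under 0.05, all with the lower descending value (median -0.20). Gm26771, an antisense gene that overlaps the end of Sfrp2, was called too, at 123, 107 and 139 CPM against 14.4, 10.7 and 31.4 CPM (-2.85 ± 0.29, adjusted p = 0.044), and its reads cannot be told apart from those of Sfrp2 where they overlap. The 250 bases before the RefSeq start of Sfrp2 (GRCm38.p6, chr3:83766071-83766320, plus strand) are shown as those of the called Wnt inhibitor with the larger change. Capitals mark TTTATG read on the other strand (as CATAAA).
Sfrp2: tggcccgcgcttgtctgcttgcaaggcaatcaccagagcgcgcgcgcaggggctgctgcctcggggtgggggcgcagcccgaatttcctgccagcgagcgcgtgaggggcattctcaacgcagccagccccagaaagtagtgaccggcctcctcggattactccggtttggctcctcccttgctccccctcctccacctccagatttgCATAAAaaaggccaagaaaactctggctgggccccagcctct

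Other signaling lists held no called gene, beside 0.134% of all genes. Of 28 genes of the BMP pathway, 9 had an unadjusted p under 0.05, 2 with the higher and 7 with the lower descending value (median -0.30). Grem1, a BMP antagonist, was at 5, 3.2 and 5.65 CPM in ascending and 0.325, 0.101 and 0.663 CPM in descending libraries (adjusted p = 0.0987), and Gdf10, a BMP-related ligand, at 24.9, 14 and 18 CPM against 7.55, 1.95 and 5.23 CPM (adjusted p = 0.146). Both were separate between segments. Of 24 TGF-β pathway genes only Inhba, an activin subunit gene, had an unadjusted p under 0.05, with 208, 242 and 229 CPM against 160, 155 and 132 CPM (adjusted p = 0.532, list median 0.02). Tgfbr1 and Tgfbr2, the receptor genes, had log2 fold changes of -0.30 ± 0.17 and -0.20 ± 0.16 (adjusted p = 0.832 and 0.854). Of 14 Notch pathway genes Dll1 alone had an unadjusted p under 0.05. Of 34 genes of FGF, PDGF and IGF signaling 6 did, and among them Vegfd, a ligand of lymphatic and vascular receptors, was at 21.6, 22.5 and 21.4 CPM in ascending and 72.7, 74.6 and 95.9 CPM in descending libraries (1.88 ± 0.21, adjusted p = 0.0605), just outside the threshold. Of 52 axon guidance genes, 4 had an unadjusted p under 0.05 with the higher and 10 with the lower descending value (median 0.01). Sema3e, a semaphorin, was at 2.67, 3.5 and 2.19 CPM against 13.6, 19.3 and 8.46 CPM (adjusted p = 0.0913), and Flrt3, an adhesion protein gene, at 13.2, 10.7 and 12.5 CPM against 1.23, 0.336 and 1.36 CPM (adjusted p = 0.0778). Of 10 retinoic acid genes Rbp4 and Dhrs3 had an unadjusted p under 0.05, both with the higher descending value (median 0.19).

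A group of called genes encodes proteins of the cell surface, coagulation, complement and lipid handling. Thbd, encoding thrombomodulin, which binds thrombin and turns it towards activation of protein C, was lower in the descending segment, with 235, 174 and 201 CPM in ascending and 33.6, 33.8 and 36.3 CPM in descending libraries (-2.55 ± 0.18, adjusted p = 0.0356). The descending values differed little among animals. Lpar1, encoding a receptor for lysophosphatidic acid, was at 37.7, 18 and 23.1 CPM against 3.76, 1.07 and 1.17 CPM (-3.88 ± 0.34, adjusted p = 0.0399). Cd55, encoding a membrane inhibitor of complement, was at 12.4, 5.41 and 5.77 CPM against 0.469, 0.436 and 0.234 CPM (-4.30 ± 0.45, adjusted p = 0.0466). Animal 1 had the highest ascending value of both Lpar1 and Cd55. Lpl, encoding lipoprotein lipase, was at 54.1, 47.4 and 52.6 CPM against 7.55, 10.5 and 8.15 CPM (-2.57 ± 0.26, adjusted p = 0.044). Among 10 chemokine and cytokine genes none was called, though Il33, the alarmin interleukin-33, was at 12.8, 13.7 and 16.5 CPM against 1.41, 0.369 and 1.21 CPM (adjusted p = 0.076).

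The remaining called genes encode products of varied kinds. Camsap2, whose product binds microtubule minus ends, was higher in the descending segment, at 9.27, 4 and 7.28 CPM in ascending and 62.8, 36.2 and 65.7 CPM in descending libraries (3.03 ± 0.24, adjusted p = 0.0396). Cbfa2t2, a transcriptional corepressor gene, was lower, at 11.6, 41 and 47.6 CPM against 1.63, 3.29 and 3.67 CPM (-3.40 ± 0.31, adjusted p = 0.044), and animal 1 was low in both segments. Brip1, a DNA repair helicase gene, was at 49.9, 54.8 and 47.2 CPM against 8.63, 5.37 and 6.12 CPM (-2.94 ± 0.27, adjusted p = 0.044). Gxylt2, encoding a xylosyltransferase that modifies epidermal growth factor repeats such as those of Notch, was at 326, 292 and 308 CPM against 80.2, 90.5 and 92.8 CPM (-1.82 ± 0.16, adjusted p = 0.0399). Its libraries were close together within each segment. Rpgrip1, known for its part in the photoreceptor cilium, was at 23.5, 29.1 and 21.6 CPM against 0.65, 0.369 and 1.33 CPM (-5.10 ± 0.52, adjusted p = 0.0448), and Plekhh1 at 17.9, 16.1 and 16.4 CPM against 0.361, 0.336 and 1.05 CPM (adjusted p = 0.044). Fgf12, an intracellular regulator of sodium channels, was at 5.83, 3.47 and 7.44 CPM against 0.181, 0.168 and 0.312 CPM, and the orphan receptor gene Gpr21 at 4.06, 5.11 and 5.93 CPM against 0.144, 0.235 and 0.195 CPM. The uncharacterised gene 2210407C18Rik was at 118, 147 and 168 CPM against 18.5, 23.3 and 33.5 CPM (-2.55 ± 0.19, adjusted p = 0.0356), and in both segments animal 1 was lowest and animal 3 highest. The long noncoding gene Gm46323, the least abundant of the 26, was at 4.3, 2.6 and 2.63 CPM against 0.108, 0.0671 and 0.039 CPM, and no fold is given because no descending library held more than 3 of its counts. Gxylt2, Lpl, Fgf12, Gpr21 and Gm46323 fall outside the rule by which genes were named, and they were chosen after their values were seen.

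Of 26 contractile genes tested none was called, beside 0.134% of all genes. An unadjusted p under 0.05 was reached by 2 with the higher and 2 with the lower descending value (median 0.16). Over all genes the shares were 2.77% and 3.17%. Myocd, the coactivator of smooth muscle transcription, was at 144, 87 and 156 CPM in ascending and 215, 249 and 194 CPM in descending libraries (0.80 ± 0.26, adjusted p = 0.731), and Myh11 at 2289, 2211 and 2244 CPM against 2914, 3613 and 2425 CPM (0.39 ± 0.15, adjusted p = 0.83). Both were separate between segments but far from the adjusted threshold. Myl9, a regulatory light chain gene, was at 7554, 6754 and 7458 CPM against 5293, 5619 and 4072 CPM (-0.55 ± 0.15, adjusted p = 0.553). Of 22 vasoconstrictor receptor and regulator genes, 4 had an unadjusted p under 0.05. Ednra, encoding the endothelin receptor of SMCs, was at 25.4, 21.2 and 24.9 CPM against 7.69, 4.23 and 8.38 CPM (-1.87 ± 0.29, adjusted p = 0.125), and Ptger3, a prostaglandin receptor gene, at 1.11, 1.87 and 1.03 CPM against 7.19, 11.8 and 8.35 CPM (2.78 ± 0.34, adjusted p = 0.0755). These receptors differed in opposite directions, each without overlap. Among 18 relaxation genes Pde1c, a cyclic nucleotide phosphodiesterase gene, was at 12.4, 22.3 and 16.8 CPM against 1.01, 1.11 and 2.46 CPM (adjusted p = 0.0689), and none was called. No ion channel gene of 38 and no cadherin of 20 was called. Of 19 chondrogenic and calcification genes none was called, and 1 had an unadjusted p under 0.05 with the higher and 5 with the lower descending value (median -0.36). Chad, a cartilage matrix gene among them, was at 4.44, 1.17 and 13.5 CPM against 0.144, 0 and 0.234 CPM (adjusted p = 0.0532). Of 26 tested genes that the study named for these cells, none was called, and 5 had an unadjusted p under 0.05 (median -0.15). Over all pathway lists together, 610 genes were tested and 9 were called, 3 higher and 6 lower, beside 26 of 19392 (0.134%) over all genes. The median log2 fold change of the 610 was -0.05.

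Markers of other cells were examined beside these results, because several called genes are also expressed by adventitial cells. Of 14 fibroblast markers 12 were tested, 1 was called (Lum), and 7 had an unadjusted p under 0.05 with the lower descending value, Dcn, Pi16, Cd34, Scara5, Col14a1 and Pdgfra besides Lum. Only Serpinf1 had one with the higher value (15.3, 13.7 and 14.6 CPM against 24.2, 36.2 and 34.6 CPM). The median log2 fold change of the 12 was -0.88, with 9 values negative and 3 positive. The summed level of the list, which is weighted towards its most abundant members, overlapped between segments. It was 417 to 548 CPM in ascending and 281 to 722 CPM in descending libraries, and it does not show that fibroblast content was alike. Only 2 of the 14 markers, Dpt and Clec3b, were under 1 CPM in all 6 libraries. The 9 mesothelial markers summed to 23.9 to 28.3 CPM against 7.84 to 12.6 CPM, without overlap, and Krt8 was at 0 in all 6 libraries. Among the 7 tested, 5 had a negative and 2 a positive log2 fold change. An unadjusted p under 0.05 was reached by 2, both lower, Nkain4 among them (6.18, 3.94 and 5.33 CPM against 0.831, 0.47 and 0.897 CPM). Msln (mean 0.277 against 0.342 CPM), Upk3b (0.76 against 0.869 CPM), Wt1 and Lrrn4 overlapped between segments. The 14 cardiomyocyte markers summed to 101 to 113 CPM against 60.1 to 96.8 CPM, also without overlap, and Myl7 was at 0 throughout. Ryr2, the most abundant of them, was at 58.1, 74 and 53.2 CPM against 58.3, 64.2 and 27.1 CPM, with overlap. The members did not share a direction: of 8 tested, 5 had a negative log2 fold change, Tnnt2 and Ttn among them, and 3 a positive one, among them Tnni3 (mean 0.492 against 2.23 CPM) and Myh7 (1.48 against 2.16 CPM). The 12 macrophage markers summed to 13.4 to 18.2 CPM against 18.8 to 26.4 CPM, without overlap, and the 12 endothelial markers to 101 to 135 CPM against 124 to 136 CPM. Of the endothelial markers 3 were under 1 CPM in all 6 libraries, Cdh5 and Emcn among them. Pecam1 made up most of the sum, at 74.2, 59.9 and 83.1 CPM in ascending and 68, 78.2 and 92.9 CPM in descending libraries. Sums for Schwann and melanocyte markers were 33.2 to 46.9 CPM against 47.6 to 55.8 CPM, without overlap. Sums for pericyte, chondrocyte, adipocyte, lymphocyte and skeletal muscle markers overlapped between segments, and so did those of erythroid markers, which reached 98.4 CPM in the descending library of animal 3. The part of these cells in the differences of Lum, Fbln1, Hand2 and the other called genes was not tested. No gene of the circadian (17 tested), interferon (17) or mitochondrially encoded (13) lists reached an unadjusted p under 0.05, whereas 5 of 25 immediate early genes did, 2 with the higher and 3 with the lower descending value.

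The Tgfbr1/2iSMCKO mice gave 6 further libraries in which the same segments were compared without sharing a sample with the GFPiSMC mice. In them 3 of 19190 genes were called (0.0156%), Hand2, Hand2os1 and Sla2, all lower in the descending segment, and 908 had an unadjusted p under 0.05 (4.73%). Of the 26 genes called in GFPiSMC SMCs, 25 could be tested, and 21 of these (84%) had the same direction there, each with an unadjusted p under 0.05. Over all 18038 genes tested in both genotypes, 52.1% had the same direction and 3.47% had it together with an unadjusted p under 0.05 in Tgfbr1/2iSMCKO SMCs. Hand2 and Hand2os1 also passed the adjusted threshold. Hand2 was at 138, 107 and 69.7 CPM in ascending and 1.85, 1.68 and 0.839 CPM in descending Tgfbr1/2iSMCKO libraries (-6.18 ± 0.21, adjusted p = 0.00129), and Hand2os1 at 75.8, 58.1 and 31.4 CPM against 1.85, 1.63 and 1.82 CPM (-4.87 ± 0.33, adjusted p = 0.0305). Hoxa7 was at 3.12, 15.6 and 11.7 CPM against 74.1, 63.7 and 85.4 CPM (3.11 ± 0.50, adjusted p = 0.177), and Hoxb7 at 5.94, 16.5 and 16.1 CPM against 61.6, 56.8 and 69.3 CPM (2.41 ± 0.34, adjusted p = 0.137), both again without overlap. Over the Hox genes of groups 5 to 10 the median was 1.92, beside 2.01 in GFPiSMC SMCs.

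The 4 genes without the same direction were Camsap2, Cbfa2t2, Rpgrip1 and Gpr21. Camsap2 was at 51.3, 42.2 and 55.4 CPM in ascending and 46.9, 3.44 and 58.1 CPM in descending Tgfbr1/2iSMCKO libraries (-1.05 ± 0.75), so that 5 libraries lay within the range of the GFPiSMC descending libraries and 1 below that of the ascending ones. Rpgrip1 was at 32.9, 0.403 and 1.33 CPM against 31.8, 1.68 and 0.769 CPM (0.25 ± 0.51), high in both segments of animal 1 and low in those of the others. Cbfa2t2 was at 4.02, 57.3 and 5.24 CPM against 9.49, 45.3 and 3.07 CPM (0.03 ± 0.41), high in both segments of animal 2. Gpr21 was at 6.67, 2.12 and 6.66 CPM against 6.38, 11.7 and 5.52 CPM (0.64 ± 0.59), with overlapping ranges. Plekhh1, with the same direction, was at 20.2, 20.6 and 25.4 CPM against 24, 0.706 and 0.28 CPM, where the descending library of animal 1 lay among the ascending ones. A span of more than 10-fold among the 3 libraries of a Tgfbr1/2iSMCKO group, in a gene reaching 10 CPM there, was found in Camsap2, Cbfa2t2, Plekhh1 and Rpgrip1, 4 of the 26 called genes (15.4%), and in 173 of 19392 genes (0.892%). In GFPiSMC groups it was found in none of the 26 and in 184 genes (0.949%). A test of the difference between the genotypes called no gene (edgeR, 0 of 22320 or 0%, with 818 or 3.66% at unadjusted p under 0.05, and 44 by DESeq2). For Sfrp2 the log2 fold changes were -2.57 ± 0.24 in GFPiSMC and -1.13 ± 0.13 in Tgfbr1/2iSMCKO SMCs (adjusted p = 0.962 for the difference). Since the 26 genes were called on their GFPiSMC values, which are also 1 side of this difference, their p for it is not independent of the call.

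**Figure D5:**
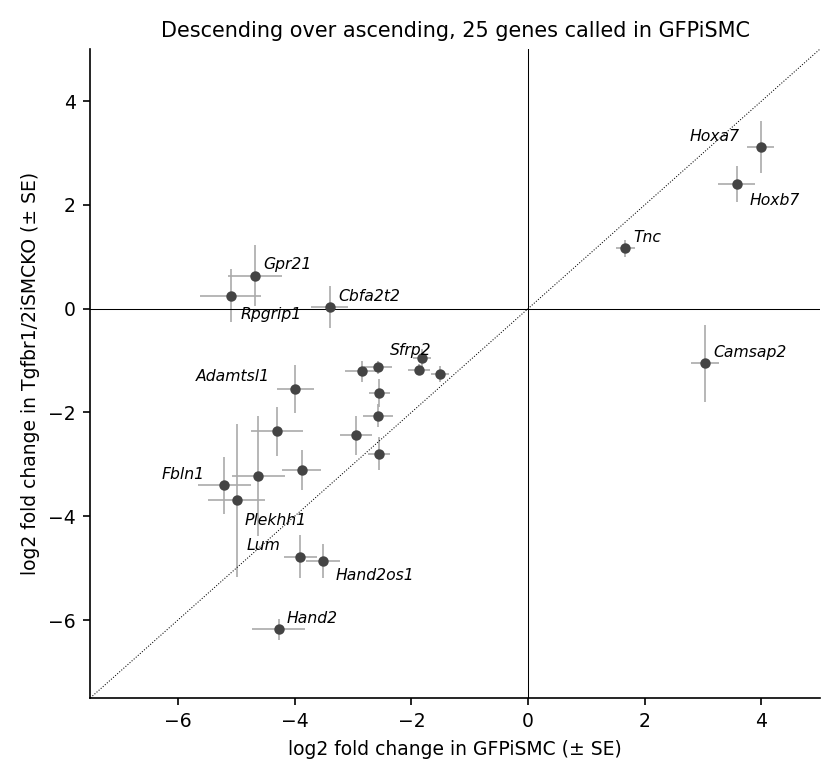
Log2 fold change (descending over ascending) in GFPiSMC (horizontal axis) and in Tgfbr1/2iSMCKO SMCs (vertical axis) of the 25 called genes that could be tested in both, with bars of 1 SE; the dotted line marks equal values. The genes chosen on the horizontal axis have the same sign on the vertical axis in 21 cases, while Camsap2, Cbfa2t2, Rpgrip1 and Gpr21 do not.

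The set of RefSeq promoters used here held an entry for 18 of the 26 called genes, and the 250 bases upstream were searched on both strands for 4 short motifs. TTTATG was present in 3 of the 18 (Hoxa7, Lpar1 and Sfrp2), and in 12.4% of the 26994 genes with an entry. TAATTA was present in 2 (Hand2 and Lpar1), against 5.66% of genes, TATAAA in 4 (2210407C18Rik, Rpgrip1, Tnc and Wif1), against 14.3%, and GATAA in 1 (Hand2), against 25.5%. Matches of this length describe the letters of these stretches and show no binding.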

How the data were processed

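RNA was sequenced from GFP-positive SMCs of 12 aortic segments, 3 animals per genotype and segment. The authors trimmed reads with Trim Galore, aligned them to GRCm38 (mm10) with HISAT2 and deposited unscaled counts per gene (GENCODE M15) from StringTie, which derives counts from coverage. Counts of 2 (16384) outnumber counts of 1 (11362), so the number of fragments may be smaller. All 52636 genes carried an identifier, and 52489 were matched to GENCODE M21. Genes passing edgeR's filterByExpr were fitted with edgeR 4.0.16 in R 4.3.3 (TMM factors, quasi-likelihood, animal and segment as terms). The animal number of the labels formed the block. The deviations of same-numbered GFPiSMC libraries over 9207 genes correlated at 0.186, -0.241 and 0.0237, so these values do not show the pairing. Those of Tgfbr1/2iSMCKO animals 1, 2 and 3 correlated at 0.0611, 0.376 and 0.661. The biological coefficient of variation was 0.396 with 2 residual degrees of freedom. Exact 2-sided permutation of 3 libraries against 3, with the pairing ignored, allows no p below 0.1. With 3 pairs the limit is higher. limma 3.58.1 and DESeq2 1.42.0 gave alternatives. Genes were named if called with at least 100 mean counts and 1 direction in all 3 animals (the 12 largest and smallest fold changes and the 5 smallest p each way), or if in a list. The segments, lists and rules were chosen with earlier results of these data known. CPM are TMM-scaled. Between-library chi-square tests found no duplicates. Whether libraries of 1 number came from 1 mouse is taken from the labels. The values of a few genes are not reported here.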

Additional observations from a re-analysis of the deposited data

How the results depend on the processing

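The log2 fold changes of the 26 called genes kept their sign in every fit. Of 2820 pairs of a named gene and an alternative (168 genes), 2482 stayed on their side of the threshold with the same sign, 164 lost a call, 158 gained one and 16 changed sign, all 16 in Hox genes far from the threshold. The number of called genes moved more, from 26 to 73 with no replicate block, 72 in all 12 libraries with the animal as a block, 83 with 4 group means and no block, 308 by DESeq2 and 83 without a filter on low counts, and to 0 in a test against a 2-fold change (318 genes at unadjusted p under 0.05). Called list members went from 9 to 24, 23, 28, 65, 29 and 0 in these fits, to 14 where a gene needed 50 counts on average and to 16 with counts divided by 2. Called Hox genes went from 2 to 8 by DESeq2 and to 0 in the 2-fold test. limma-voom, RLE factors and library size alone gave 24, 23 and 28 called genes. Leaving out 1 animal gave 0 to 130 called genes (0 without animal 1, 719 at unadjusted p under 0.05), 0 to 28 list members and 0 to 4 Hox genes, and within all 12 libraries 5 to 8, 1 to 3 and 0. In Tgfbr1/2iSMCKO SMCs the 3 calls became 214 by DESeq2, 4 without the block and 2 to 28 without 1 animal, and the 0 calls between genotypes became 44 by DESeq2. The causes were not tested. The fits with counts divided by 2, those leaving out an animal within all 12 libraries or in Tgfbr1/2iSMCKO, and some list counts were chosen after seeing the data.

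Changes of sign concerned log2 fold changes of Hoxa13, -0.0222 with counts divided by 2, and of genes without 1 animal. Leaving out 1 animal gave -0.301 to 0.378 for Hoxa13, -0.630 to 0.0890 for Hoxb2, -0.0114 to 0.477 for Hoxb4, -0.632 to 1.14 for Hoxd1, -1.86 to 1.16 for Hoxd3 and -0.0456 to 0.303 for Hoxd8. Within all 12 libraries it gave -0.280 to 0.374 for Hoxa13, -0.609 to 0.0972 for Hoxb2 (0.0562 without animal 2), -0.625 to 1.16 for Hoxd1, -1.85 to 1.24 for Hoxd3 (1.03 without animal 1) and -0.0252 to 0.311 for Hoxd8. A level under 3 counts in a library was below what these depths resolve. The correlations of same-numbered libraries did not exceed 0.1 in every pair, so the block rests on the labels and a call lost or gained with it is not a weaker or stronger effect.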

Other observations

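Genes that stood at either a high or a low level, library by library, were seen outside the 26 called genes as well. Lrrc8a, a volume-regulated anion channel gene that was called only without animal 2, was at 1.98, 199 and 1.67 CPM in ascending and 174, 170 and 170 CPM in descending GFPiSMC libraries, so that the ascending library of animal 2 had the descending level. In Tgfbr1/2iSMCKO libraries it was at 0.797, 1.21 and 1.66 CPM against 0.216, 2.25 and 122 CPM, high in 1 library alone. Sla2, an adaptor gene of lymphocytes that was called in Tgfbr1/2iSMCKO SMCs, was at 16.3, 15.4 and 12.5 CPM in ascending and 0.302, 0.265 and 0.175 CPM in descending libraries there. In GFPiSMC libraries it was at 0.139, 0.133 and 23 CPM against 15.3, 0.101 and 0.273 CPM, high in 1 library of each segment. These genes were chosen after their values were seen, and the reason for the levels was not tested.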
